A study of Mus musculus with 5 samples.

Results

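Genes of DNA replication and S phase, the part of the cell cycle in which the genome is copied, were examined in tumour-associated macrophages with and without MyD88. The members were 44 named genes of origin licensing, the replicative helicase, the polymerases, nucleotide supply and the cyclin E and E2F factors that switch them on. They were chosen by gene symbol. Of the 44, 43 were paired with a probe set, each with 1, among 19505 genes measured, and Mcm7 is not analysed here. Whole-transcript Affymetrix arrays were used, 1 per sample, with 3 arrays from MyD88-ko mice and 2 from wild-type (WT) mice, all of the C57BL/6 strain. All mice were 6 to 12 weeks old and carried subcutaneous B16-F10 tumours, grown from a mouse melanoma line, and cells were collected on day 15. Male and female mice were used. The sort kept CD45+ F4/80+ CD11b+ cells and left out those with CD3, B220 or NK1.1. The protocol gives the spleen as the tissue sorted, whereas the other labels call the cells tumour-associated macrophages. MyD88 is the adaptor protein behind IL-1 receptors and most of the Toll-like receptors, and the MyD88-ko label does not name the deleted exons or a cell type. The labels do not tell whether each array stands for a mouse of its own; p-values therefore reflect only how these 5 arrays scatter, which could be technical scatter.

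A cell that is about to divide first loads the MCM helicase onto origins of replication, a step called licensing. Cyclin E with its kinase then frees E2F transcription factors from the retinoblastoma protein, and E2F1 and its relatives raise transcription of most of the genes described here, so that their messages peak at the border of G1 and S phase. Most tissue macrophages are resting, and macrophages in tumours come from both recruited monocytes and local division, so replication genes mark the part of a population that is cycling.

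Values are log2 after RMA, the normalization the authors used, and the level of 1 probe set cannot be set against that of another. The arrays carry 5222 negative control rows, and their 95th percentile on each array was taken as a background limit. This limit was 6.55, 6.59 and 6.74 on the MyD88-ko arrays and 6.91 and 6.96 on the WT arrays. It is strict, since the median of the positive controls also lay between 6.51 and 6.70. The targeted gene, Myd88, read 7.73, 7.01 and 7.58 in MyD88-ko against 8.46 and 8.40 in WT. It was 1.99-fold lower, which did not pass (limma, adjusted p = 0.179). Of 11 measured macrophage markers 10 were above the limit on all arrays, among them Ptprc, Itgam, Adgre1 and Csf1r. No marker of T cells (6 measured), B cells (6), natural killer cells (7) or erythroid cells (6) exceeded the limit on any array. The Y-linked genes Eif2s3y, Kdm5d and Uty averaged 5.51, 5.51 and 4.59 on the MyD88-ko arrays and 5.89 and 6.03 on the WT arrays.

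Replication genes lay above their WT level in MyD88-ko cells, but no single gene passed the adjusted test and the arrays within a group also differed. Of the 43 genes, 41 had a positive difference, against 53.1% of all genes, and the median difference was 0.43 on the log2 scale against 0.015 over all genes. On 30 of them every MyD88-ko array lay above both WT arrays, against 14.8% of all genes, and on none did every MyD88-ko array lie below (12.9% of all genes). None of the 43 passed at a Benjamini-Hochberg adjusted p under 0.05 in limma; 37 of 19505 genes (0.190%) did, 1 of them higher (0.00513%). With any 1 array left out, 0 or 1 of all genes passed. At an unadjusted p under 0.05 there were 25 members, all higher, against 6.16% of all genes higher and 6.39% lower. The size of the difference rested on WT replicate 1: without it the median was 0.28, while 40 differences were still positive. Without WT replicate 2 the median was 0.62. Without MyD88-ko replicate 1, 2 or 3 the count of members at an unadjusted limma p under 0.05 was 15, 13 and 21. Over all 19505 genes it was then 1695, 1691 and 2112, in either direction. No such count is given without WT replicate 1 or 2, because the 1 WT array left has no spread of its own. The counts above are therefore not the lowest that leaving out an array could give. With the mean of the Y-linked genes as a covariate the median was 0.65. In bulk RNA a smaller number of cycling cells cannot be told apart from less of these messages in each cell.

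**Figure D1:**
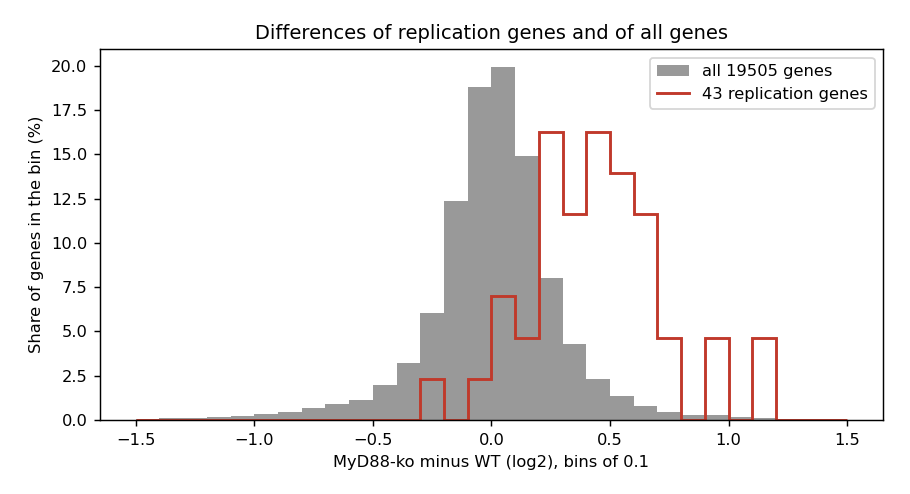
Share of genes (vertical axis, percent) in each 0.1-wide bin of the MyD88-ko minus WT difference (horizontal axis, log2), for all 19505 genes in grey and the 43 replication genes as a red line; differences beyond 1.5 in either direction are not drawn. All genes centre on a median of 0.015 and the replication genes on 0.43, with 2 of the 43 below 0.

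The arrays of each group also differed from each other in these genes. MyD88-ko replicate 2 was the highest array for 29 of them (67.4%), against 23.0% of all genes. WT replicate 1 was the lowest array for 33 (76.7%), against 25.1% of all genes. The WT arrays differed from each other: WT replicate 2 lay above WT replicate 1 for 35 members (81.4%) against 45.9% of all genes, with a median step of 0.28 on the log2 scale, compared with -0.0021 over all genes. After subtraction of each gene's mean, the median of the members was 0.13, 0.33 and 0.06 on the MyD88-ko arrays and -0.42 and -0.11 on the WT arrays. The groups did not overlap in this median, but the step between WT replicate 2 and MyD88-ko replicate 3 was smaller than the step between the WT arrays.

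**Figure D2:**
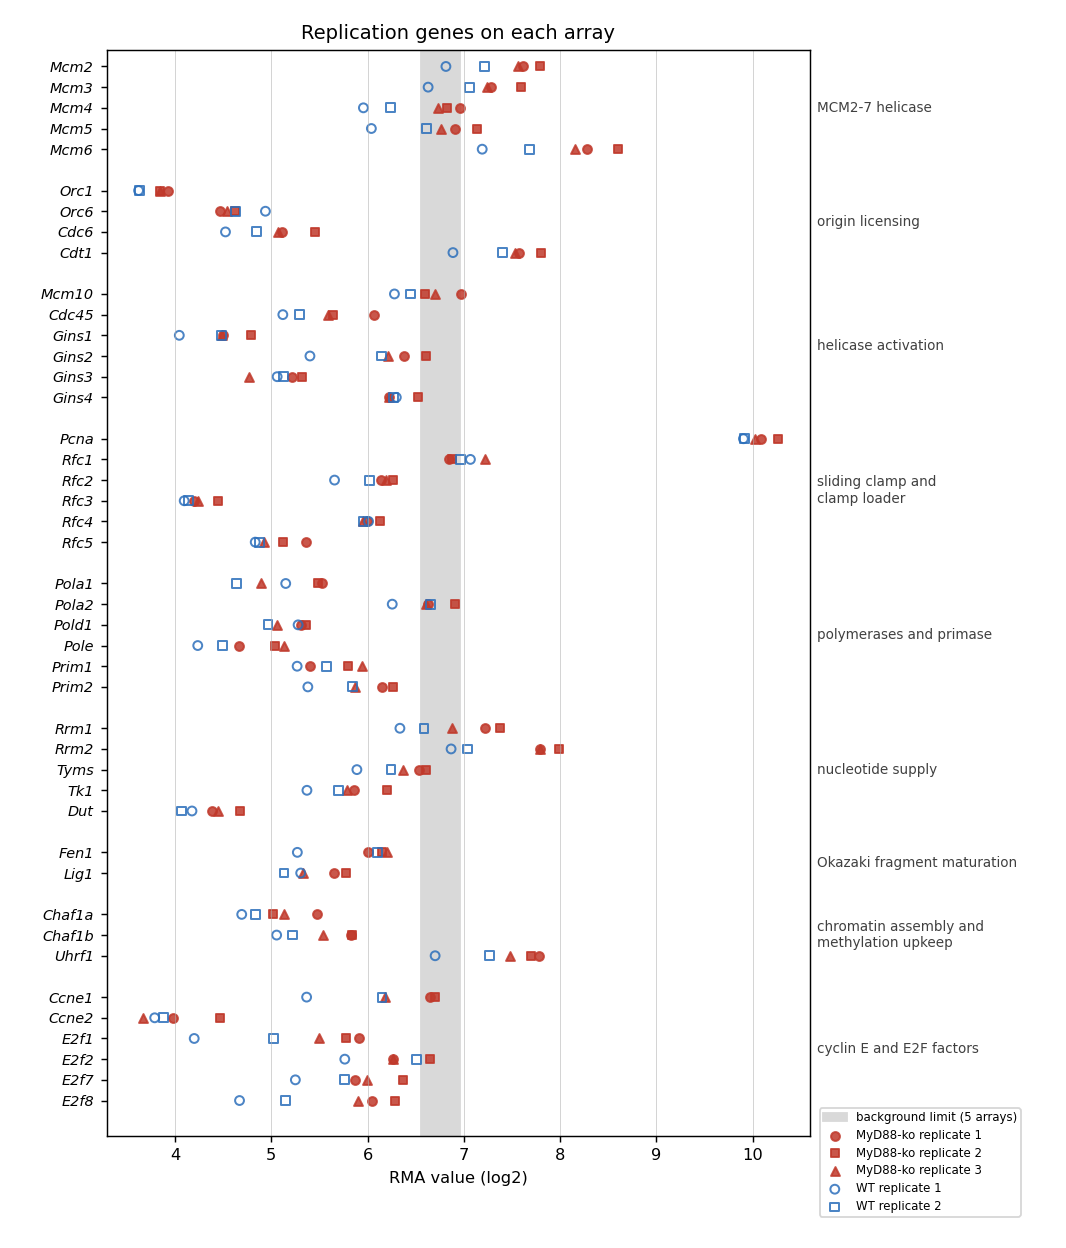
RMA values (horizontal axis, log2) of the 43 replication genes, grouped by role, on each of 5 arrays: filled red symbols are MyD88-ko, open blue symbols WT, and the grey band spans the background limits of the 5 arrays, 6.55 to 6.96. The open blue circle of WT replicate 1 is the lowest point for 33 genes and the red square of MyD88-ko replicate 2 the highest for 29.

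Against the negative controls, all 43 genes lay above the median control on every array, but few lay above the limit. Above it were 14, 17 and 10 members on the MyD88-ko arrays and 3 and 8 on the WT arrays. The count over all genes was also lower in WT, at 3420 and 3480 against 4334, 4194 and 3968 in MyD88-ko. The median member had a negative-control percentile of 89.9 to 93.3 in MyD88-ko and of 81.8 and 87.6 in WT. Mcm6, Pcna and Rfc1 exceeded the limit on each of the 5 arrays (15.3% of all genes did), and 26 members were above it on none (75.9% of all genes). The median difference was 0.37 for these 26. The control rows themselves were brighter in WT, with medians of 3.61 and 3.60 against 3.36, 3.35 and 3.52 in MyD88-ko, so a count of genes above the limit also moves with the limit. Shifting the arrays to equal control medians takes a constant off each array, so the difference of every gene moved up by the same amount. The median of all genes became 0.21 and that of the members 0.63. Their distance of 0.41 could not change under such a shift. In that setting Mcm4, Mcm6, Rrm2, E2f1 and E2f8 passed (limma, adjusted p between 0.016 and 0.042), as did 0.723% of all genes in the higher direction.

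Promoter sequence was not itself used to choose the genes. The list holds genes of a process that E2F factors switch on, so a high share of E2F sites could follow from that choice. Promoter windows of 250 bases before to 50 after the start of transcription were taken from RefSeq (GRCm38.p6), which had an entry for 35 of the 43 members. The motifs searched were TTTCCCGC, TTTCGCGC, TTTGCCGC and TTTGGCGC on both strands, with overlapping matches counted. At least 1 match stood in the windows of 14 of 35 members (40.0%), against 704 of 27025 genes (2.60%) and 531 of 15691 genes with a probe set (3.38%). Of the 14, 9 had a match before the start. The stretches around the matches of the 6 of these with the lowest p are shown to let the sites be read, in the direction of the gene, with matches in capitals. Those of Uhrf1, Cdc6 and Orc1 lie within the span of their own gene, downstream of another annotated start, and are cut to 30 bases.
Mcm6, chr1:128359715-128359845, minus strand: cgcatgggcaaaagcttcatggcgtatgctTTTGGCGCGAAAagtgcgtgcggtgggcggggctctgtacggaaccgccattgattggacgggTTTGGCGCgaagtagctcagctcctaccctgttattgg
Mcm5, chr8:75109326-75109397, plus strand: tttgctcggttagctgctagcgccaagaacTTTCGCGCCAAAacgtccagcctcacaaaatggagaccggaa
E2f7, chr10:110745211-110745278, plus strand: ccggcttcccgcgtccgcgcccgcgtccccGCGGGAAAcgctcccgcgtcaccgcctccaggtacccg
Uhrf1, chr17:56304117-56304146, plus strand: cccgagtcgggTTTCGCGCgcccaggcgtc
Cdc6, chr11:98908002-98908031, plus strand: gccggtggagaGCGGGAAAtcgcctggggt
Orc1, chr4:108579416-108579445, plus strand: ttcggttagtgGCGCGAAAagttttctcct
The Mcm6 stretch holds 3 matches, 2 of them overlapping on opposite strands, and the Mcm5 stretch holds 2 that overlap in the same way. Members with a match had a median difference of 0.45 and those without one, 21 genes that include Rrm2, E2f1 and E2f8, a median of 0.43. A match describes the letters in this window and not a bound site.

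The MCM2-7 helicase, the ring of MCM proteins that unwinds DNA at the fork, was separated between the groups throughout. All 5 measured subunits had every MyD88-ko array above both WT arrays (14.8% of all genes), with a median difference of 0.64. None passed (limma, lowest adjusted p = 0.137, for Mcm4). Mcm6 read 8.28, 8.60 and 8.16 in MyD88-ko and 7.19 and 7.68 in WT, a 1.88-fold difference (0.91 on the log2 scale, 95% interval 0.43 to 1.39, adjusted p = 0.179 by limma). Mcm6 was above the background limit on every array. Mcm2 read 7.61, 7.79 and 7.57 against 6.81 and 7.21, which is 1.56-fold, and Mcm3 read 7.29, 7.59 and 7.24 against 6.63 and 7.05, which is 1.45-fold. Both genes were under the limit on WT replicate 1 alone. Mcm4 read 6.96, 6.82 and 6.73 against 5.96 and 6.23, and Mcm5 read 6.91, 7.14 and 6.76 against 6.04 and 6.61. Both genes were under the limit on both WT arrays. The bound for each against the WT limits rounded to 1 or was lower, so no fold is given for them. The gap between the lowest MyD88-ko and the highest WT array was 0.50 for Mcm4 and 0.47 for Mcm6, but only 0.15 for Mcm5 (all log2). WT replicate 1 was the lowest array for all 5 subunits.

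The licensing factors, which load the helicase, were mixed. Cdt1 brings MCM to origins and was the 1 licensing gene above the limit in both groups, though under it on WT replicate 1. It read 7.57, 7.80 and 7.54 in MyD88-ko and 6.89 and 7.40 in WT, 1.40-fold apart (limma, adjusted p = 0.347). The gap of 0.13 between the nearest arrays of the groups was smaller than the step of the WT arrays from each other. Cdc6, the ATPase that works with Cdt1, read 5.11, 5.46 and 5.07 against 4.52 and 4.84. Orc1, the largest subunit of the origin recognition complex, read 3.92, 3.84 and 3.84 against 3.62 and 3.63, with negative-control percentiles of 50.2 to 64.1. Orc6, another subunit of that complex, was the member with the most negative difference, at 4.47, 4.62 and 4.54 against 4.94 and 4.62, and its groups overlapped. Cdc6, Orc1 and Orc6 did not exceed the limit on any array, so no fold is given.

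Helicase activation adds Cdc45 and the 4 GINS proteins to MCM, with Mcm10 helping the assembled helicase to start. Of the 6 genes, 3 had groups that did not overlap, all higher in MyD88-ko (14.8% of all genes). None passed (limma, lowest adjusted p = 0.276, for Cdc45). Mcm10 read 6.97, 6.59 and 6.69 against 6.28 and 6.45. Cdc45 read 6.06, 5.64 and 5.59 against 5.12 and 5.30, under the limit throughout. Gins2 read 6.37, 6.61 and 6.21 against 5.40 and 6.14, so MyD88-ko replicate 3 and WT replicate 2 were 0.07 apart. Unlike most members, Mcm10 and Cdc45 were highest on MyD88-ko replicate 1. The other GINS genes gave no separation: Gins1 averaged 4.59 ± 0.17 in MyD88-ko (SD, n = 3) and 4.26 ± 0.31 in WT (SD, n = 2). Gins3, at 5.10 and 5.09, and Gins4, at 6.32 and 6.28, had nearly equal means.

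The sliding clamp and its loader had the smallest differences of any role, with a median of 0.20. Pcna, the ring that holds polymerases on DNA, was far above background, with negative-control percentiles of 99.2 to 99.4. It read 10.08, 10.27 and 10.03 in MyD88-ko and 9.90 and 9.92 in WT, 1.16-fold apart (0.21, 95% interval -0.06 to 0.49, limma adjusted p = 0.510). The groups did not overlap for Pcna, and the interval includes 0. The Rfc genes encode the loader that opens the clamp. Rfc1, the large subunit, was above the limit on all arrays and had a difference of -0.04 with a 95% interval of -0.39 to 0.31. Rfc2 read 6.14, 6.26 and 6.19 against 5.66 and 6.02. Rfc3, at 4.29 and 4.12, Rfc4, at 6.02 and 5.98, and Rfc5, at 5.14 and 4.85 (means), were under the limit on all arrays, as was Rfc2.

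Polymerase and primase genes had positive differences in all 6 cases (53.1% of all genes), and the groups overlapped for 4 of them. Over all genes, 14.8% had every MyD88-ko array above both WT arrays. Pole, the catalytic subunit of the leading-strand polymerase, read 4.67, 5.04 and 5.13 against 4.23 and 4.49 and was 1 of the 4 members highest on MyD88-ko replicate 3. Prim2, a primase subunit, read 6.15, 6.26 and 5.87 against 5.38 and 5.84, with a gap of 0.03 between the groups. Both genes were under the limit. Pola1 and Pola2, subunits of the polymerase that extends primers, had means of 5.30 ± 0.36 and 6.71 ± 0.17 (SD, n = 3) against 4.89 ± 0.36 and 6.45 ± 0.28 (SD, n = 2). Pold1, the catalytic subunit of the lagging-strand polymerase, was at 5.24 and 5.12 and the primase gene Prim1 at 5.71 and 5.42 (means). None of the 6 passed (limma, adjusted p between 0.260 and 0.774).

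Nucleotide supply held the member closest to the threshold. Rrm2, the S phase subunit of ribonucleotide reductase, which makes deoxyribonucleotides, read 7.79, 7.99 and 7.79 in MyD88-ko and 6.87 and 7.03 in WT. The gap between the groups was 0.76 on the log2 scale, the widest of the 43 genes, against SDs of 0.11 (n = 3) and 0.12 (n = 2). WT replicate 1 alone was under the background limit. Rrm2 was 1.88-fold higher (0.91, 95% interval 0.62 to 1.20), with a limma adjusted p of 0.076 over all genes that ranged from 0.016 to 0.490 over 18 alternative settings. It was called when the control medians were made equal and when only genes above the limit on at least 2 arrays were tested (adjusted p = 0.042; 0.0466% of those genes were called higher). The partner subunit Rrm1 read 7.22, 7.38 and 6.88 against 6.34 and 6.59. Rrm1 was under the limit on both WT arrays, so its difference is given as at least 1.17-fold. Tyms, which makes thymidylate, read 6.53, 6.61 and 6.37 against 5.89 and 6.24. Tk1, which salvages thymidine, read 5.85, 6.21 and 5.79 against 5.37 and 5.70, and Dut, which removes dUTP, read 4.38, 4.67 and 4.44 against 4.17 and 4.07. All 5 genes of this role had every MyD88-ko array above both WT arrays (14.8% of all genes). The narrowest gaps were 0.09 for Tk1 and 0.13 for Tyms.

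Fen1 and Lig1 trim and join the fragments of the lagging strand. Fen1 read 6.01, 6.15 and 6.20 against 5.27 and 6.11, so the groups overlapped. The difference of 0.43 became 0.012 without WT replicate 1. Lig1 read 5.65, 5.78 and 5.33 against 5.30 and 5.13, with 0.02 between the nearest arrays. Both were under the limit on all arrays. Genes that rebuild chromatin behind the fork were separated more widely. Uhrf1, which guides maintenance of DNA methylation, read 7.78, 7.70 and 7.48 against 6.70 and 7.26, 1.59-fold apart (limma, adjusted p = 0.2496). It was under the limit on WT replicate 1 alone. Chaf1a and Chaf1b are subunits of the histone chaperone CAF-1. Chaf1b read 5.83, 5.84 and 5.54 against 5.05 and 5.22, and Chaf1a read 5.47, 5.01 and 5.13 against 4.69 and 4.83, all under the limit.

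**Figure D3:**
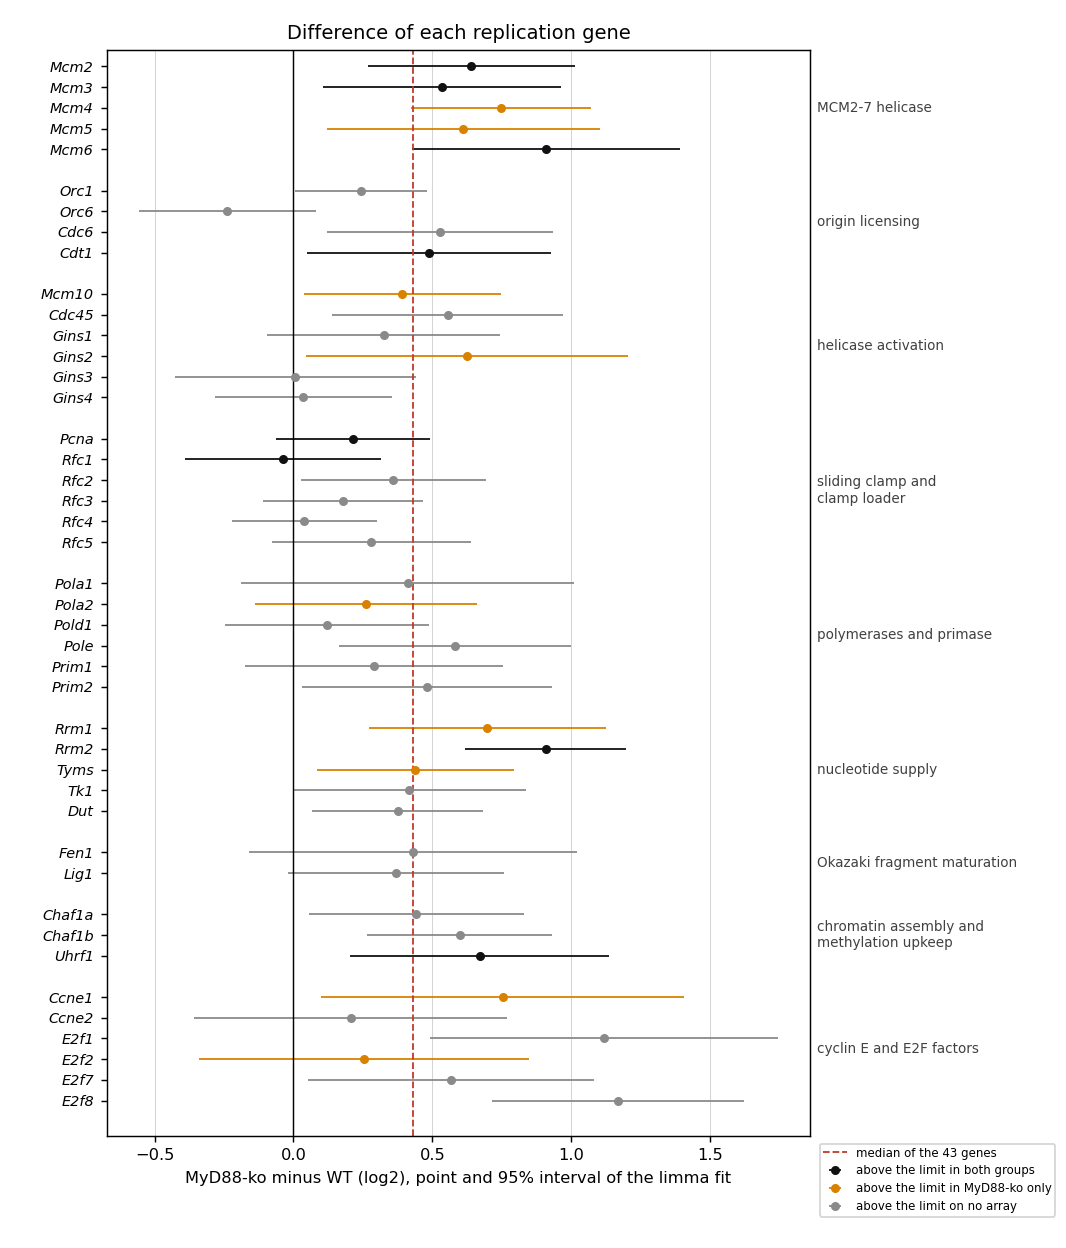
MyD88-ko minus WT difference (horizontal axis, log2) of each of the 43 genes with the 95% interval of the limma fit, by role and coloured by whether the gene was above the background limit in both groups, in MyD88-ko only or on no array; the dashed line is the median of 0.43. The intervals of 25 genes, Rrm2, E2f8 and Mcm6 among them, lie wholly above 0. Those of the others, Rfc1, Gins3 and Gins4 among them, span it, and no gene passed the adjusted test.

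The cyclin E and E2F genes had a median difference of 0.66, which was 0.34 without WT replicate 1, where MCM2-7 had 0.44 and nucleotide supply 0.43. Their centred median was -0.72 on WT replicate 1 and -0.08 on WT replicate 2. E2f8 and E2f1 had the largest differences of all 43 members but were under the background limit on every array. E2f1, an activator of S phase genes, read 5.91, 5.77 and 5.49 in MyD88-ko and 4.20 and 5.02 in WT (limma, adjusted p = 0.190). E2f8, an atypical E2F that is itself induced in S phase and represses E2F targets, read 6.04, 6.29 and 5.90 against 4.67 and 5.15 (limma, adjusted p = 0.114). For both the lowest MyD88-ko array stood clear of the highest WT array, by 0.47 for E2f1 and 0.75 for E2f8. E2f7, the other atypical factor, read 5.86, 6.36 and 5.99 against 5.25 and 5.76. E2f2, a further activator, read 6.26, 6.64 and 6.26 against 5.76 and 6.51, and its groups overlapped. Ccne1, encoding cyclin E1, read 6.65, 6.70 and 6.18 against 5.37 and 6.15, where 0.03 separated MyD88-ko replicate 3 from WT replicate 2. Ccne2 averaged 4.04 ± 0.40 in MyD88-ko (SD, n = 3) and 3.83 ± 0.06 in WT (SD, n = 2), with overlap.

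Other genes of the same process, from lists that hold no member, had a smaller median. Of 45 measured further replication and S phase genes, 35 were on the positive side (53.1% of all genes), and the median was 0.14. Every MyD88-ko array lay above both WT arrays for 19 (14.8% of all genes) and below both for 3 (12.9%). None passed over all genes (limma). At an unadjusted p under 0.05, 12 were higher (6.16% of all genes) and 2 lower (6.39%). The 4 with the lowest p were Atad2, Dbf4, Pold2 and Asf1b. Asf1b, a histone chaperone of dividing cells, read 8.10, 8.45 and 7.81 against 6.36 and 7.38, 2.38-fold apart. Asf1b was under the background limit on WT replicate 1 alone. Pold2, a polymerase subunit, read 8.02, 8.10 and 8.04 against 7.41 and 7.70, 1.41-fold apart. Dbf4, the activator of the kinase that fires origins, had means of 4.99 and 4.20, and the chromatin ATPase gene Atad2 means of 6.70 and 6.10.

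Genes that govern entry into S phase went both ways. Among 25 measured G1/S control genes the difference was positive for 16 (53.1% of all genes), and its median was 0.19. None passed (limma). At an unadjusted p under 0.05, 4 were higher (6.16% of all genes) and 3 lower (6.39%). Cdkn1b, which encodes the cell cycle inhibitor p27, read 7.75, 7.23 and 7.84 in MyD88-ko against 8.47 and 8.24 in WT, 1.68-fold lower (limma, adjusted p = 0.234). The D-type cyclin gene Ccnd3 was 1.34-fold lower, at means of 8.64 and 9.06. Ccna2, encoding the S and G2 phase cyclin A2, was 2.01-fold higher and read 7.43, 7.77 and 7.24 against 5.98 and 6.96. It was under the background limit on WT replicate 1 alone. The retinoblastoma relative Rbl1 had means of 6.61 and 6.09. These 4 genes were picked for the lowest p of the list, so that their groups did not overlap can follow from that choice. WT replicate 1 was lowest for Ccna2 and Rbl1 and highest for Cdkn1b and Ccnd3. Over the 25 genes every MyD88-ko array lay above both WT arrays for 8 (14.8% of all genes) and below both for 4 (12.9%).

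Mitosis genes shared the order of the arrays with the replication genes. Of 28 measured, 27 had positive differences (53.1% of all genes), and the median was 0.59. Every MyD88-ko array lay above both WT arrays for 20, against 14.8% of all genes. None passed (limma), and 17 were higher at an unadjusted p under 0.05 (6.16% of all genes). Mad2l1, a spindle checkpoint gene, read 6.98, 7.15 and 6.97 against 6.32 and 6.53, at least 1.07-fold higher. Aurka, Bub1 and Ncapg, the others with the lowest p, did not exceed the limit on any array and had means of 6.23 and 5.62, 5.97 and 5.28, and 3.86 and 3.35.

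Markers of other cells differed between the groups or between single arrays. B16 melanoma cells divide, and 9 of their 12 measured markers were above the limit on all arrays, although the sort was for CD45; Gpnmb and Mitf of that list are expressed by macrophages too. The summed linear signal of the 12 markers was 8141, 6338 and 8491 on the MyD88-ko arrays and 7293 and 5650 on the WT arrays, so the groups overlapped. By gene, 11 of the 12 differences were positive (53.1% of all genes) with a median of 0.24. For 2 markers, Gpnmb and Oca2, every MyD88-ko array lay above both WT arrays, against 14.8% of all genes. None of the 12 passed; Gpnmb, a lysosomal and melanosomal glycoprotein, had the lowest p (0.72 on the log2 scale, limma adjusted p = 0.144). Within each group the array with the highest replication genes had the lowest melanoma markers. MyD88-ko replicate 2 had a melanoma median of -0.16 against 0.23 and 0.25 on the other MyD88-ko arrays, and WT replicate 2 had -0.40 against 0.10. The 11 neutrophil markers, of cells that do not divide, had summed signals of 330 to 443 in MyD88-ko and 2389 to 3322 in WT. Of them 5 passed as lower (limma), against 36 of 19505 genes. A further 5, Camp, Ngp, Ltf, Mpo and Elane, did not exceed the limit on any array. Ltf and Elane had positive differences. The 7 classical monocyte markers summed to 1604 to 2518 against 4161 to 5661, with 1 lower. The 11 macrophage markers summed to 12958 to 13458 against 11254 and 12666, with no gene passing. They went both ways: 6 had every MyD88-ko array above both WT arrays (14.8% of all genes) and 3 had every one below (12.9%). WT replicate 1 was the lowest array for 7 of the 11, the complement genes C1qa, C1qb and C1qc among them, and the highest for Ptprc, Fcgr1 and Lyz2. Ptprc, which encodes the CD45 used in the sort, read 9.14, 9.13 and 9.25 in MyD88-ko against 10.21 and 9.87 in WT, 1.83-fold lower (limma, adjusted p = 0.111). Dendritic cell markers (8 measured) had a median of -0.46 and fibroblast and endothelial markers (7) of -0.26, with none passing. Of the natural killer cell markers Klrd1 passed as lower (-1.70 on the log2 scale, limma adjusted p = 0.030), although it was under the background limit on all arrays. The part of these cells in the difference of the replication genes was not tested.

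**Figure D4:**
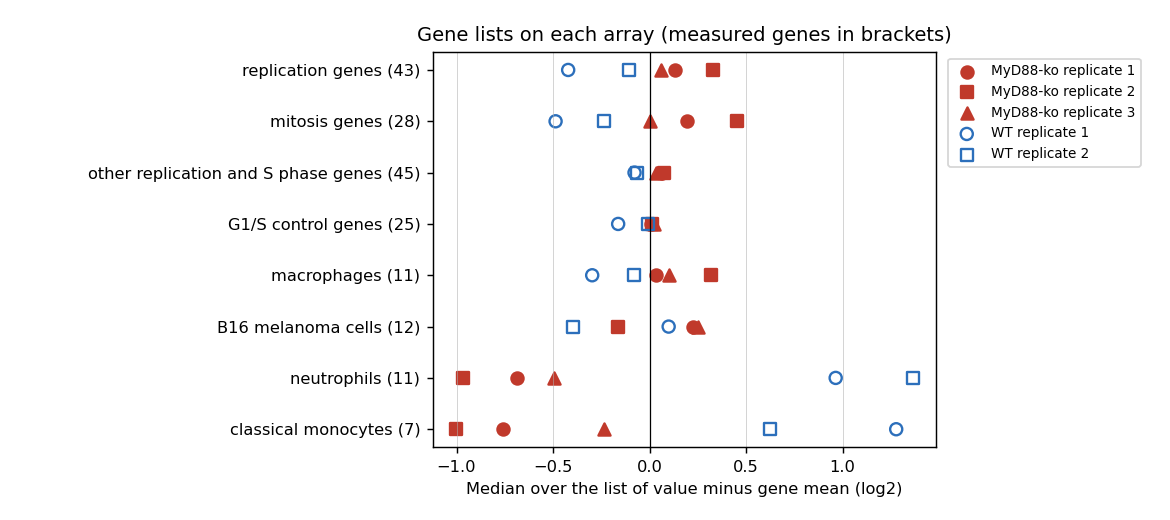
For each gene list (rows, measured genes in brackets) and array, the median over the list of value minus gene mean (horizontal axis, log2), with filled red symbols for the 3 MyD88-ko arrays and open blue symbols for the 2 WT arrays. Replication and mitosis genes run from WT replicate 1 at the left to MyD88-ko replicate 2 at the right, melanoma markers are lowest on WT replicate 2, and neutrophil and classical monocyte markers are lower on all MyD88-ko arrays.

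Across processing settings the replication genes stayed on the same side of 0 as a group. The median lay between 0.28 and 0.65 in 18 alternatives, while the median over all genes lay between -0.0080 and 0.21. Of the 43 genes, 36 kept the sign of their difference in every alternative in which they were tested. The exceptions were Gins3, Gins4, Rfc1, Rfc4, Pold1, Ccne2 and E2f2. Filters, moderation settings, averaging of probe sets and the fit with all rows leave the difference of a member as it is. Only the other alternatives could turn a sign.

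**Figure D5:**
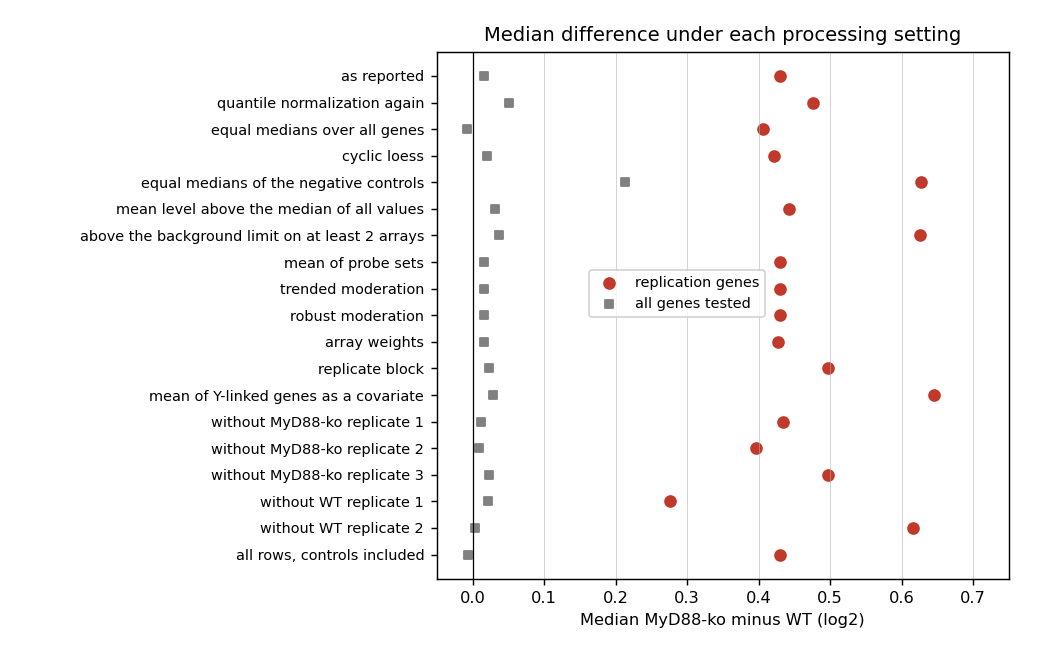
Median MyD88-ko minus WT difference (horizontal axis, log2) of the replication genes (red circles) and of all genes tested (grey squares) as reported and under each of 18 alternative settings. The lowest red point, 0.28, is without WT replicate 1 and the highest, 0.65, has the mean of the Y-linked genes as a covariate. That mean did not overlap between the groups.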

How the data were processed

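The deposited table held log2 values; per the submitters' processing notes, the authors ran RMA (Expression Console 1.1, Affymetrix), which corrects background, normalizes arrays by quantiles and summarizes probe sets. No genome build is named in the sources used here. Per the labels' protocols, 100 ng of total RNA was labelled. Of 28846 rows, 19572 had 1 gene symbol (19505 genes, no symbol changed against RefSeq) and none had several; of several probe sets the one with the highest mean was kept. The R package limma (version 3.58.1, R version 4.3.3) was run over all genes (lmFit, eBayes, 3 residual degrees of freedom, MyD88-ko minus WT), adjusted with Benjamini-Hochberg, without a filter; the fit was tested on simulated data. SDs are over arrays. A fold is given where a gene was above the background limit on at least 1 array of each group, as "at least" where in 1 group (against the higher of limit and value), and not for genes under the limit in both groups or with a bound that rounds to 1 or is lower. Alternatives were other normalizations, filters on low values, moderation settings, array weights, a replicate block, a Y-linked covariate and leaving out each array. Arrays have no read depth; their number limits the precision. All members are named, as are the 4 genes of each other pathway list with the lowest p. The members and lists were chosen with earlier results of these data known.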

Additional observations from a re-analysis of the deposited data

How the results depend on the processing

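Leaving out each array in turn gave 0 to 1 genes called, against 37, and a median of the replication genes between 0.28 and 0.62; with 1 WT array the spread came from MyD88-ko alone and is taken to hold for WT. Genes called numbered 60 with equal array medians, 63 with cyclic loess, 263 with equal control medians, 15 with array weights, 0 with the Y-linked covariate (1818 at an unadjusted limma p under 0.05) and 3 with all rows. Replication genes called numbered 5 with equal control medians and 1 among genes above the limit on at least 2 arrays, where 14 members were tested, 12 had groups that did not overlap and their median was 0.63; 26.1% of the 4290 genes in that set did not overlap in the same direction, and 6 of the 14 members passed the filter through MyD88-ko arrays alone. Their median was 0.63 with equal control medians and 0.65 with the Y-linked covariate. With the replicate number as a block, 70 genes and 0 replication genes were called and the median was 0.50; the labels do not pair the arrays, and same-numbered deviations correlated at 0.059 and 0.10. Above the 90th and 99th percentile of the controls on all arrays were 12 and 1 replication genes, against 3.

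Signs turned for Gins3 with equal array medians (-0.017), without MyD88-ko replicate 1 (-0.05) or 2 (-0.10) and without WT replicate 1 (-0.027). They turned for Rfc1 with equal control medians (0.16), without MyD88-ko replicate 1 (0.029) or 2 (0.012) and without WT replicate 1 (0.014). Without MyD88-ko replicate 2 they turned for Gins4 (-0.065), Rfc4 (-0.012) and Ccne2 (-0.0094), without WT replicate 1 for E2f2 (-0.12) and without WT replicate 2 for Pold1 (-0.036). The highest or lowest values among the left-out arrays on the reported side were 0.17 for Gins3, 0.086 for Gins4, -0.16 for Rfc1, 0.077 for Rfc4, 0.39 for Ccne2, 0.28 for Pold1 and 0.63 for E2f2. The cause was not tested.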
